A study of Mus musculus with 12 samples.

Results

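Lungs of Yy1 mutant mouse embryos were compared with control lungs at embryonic stage E14.5 over the whole transcriptome. The comparison took 8 of the 12 arrays of the series, chosen by the genotype in the sample labels: 4 controls of genotype Shh+/Cre and 4 mutants of genotype Yy1flox/flox;Shh+/Cre. Both groups carried the Shh-Cre allele, and the labels give no floxed allele for the controls. The 4 remaining arrays, of genotype Dicerflox/flox;Shh+/Cre, entered the estimate of the spread and served as a second comparator. Shh is made by the lung epithelium, the tissue in which Shh-Cre acts, whereas the RNA came from lung tissue that also holds mesenchyme, vessels and blood cells. Fewer cells of a type and less RNA per cell therefore cannot be told apart in these values. Each of 22180 genes was measured by 1 probe set on a single-channel Affymetrix array, and every level below is a deposited log2 value. Differences are Yy1 mutant minus control on the log2 scale, so a difference of 1 is a doubling.

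Yy1 encodes a zinc finger protein that binds a short DNA motif close to the transcription start of many genes. It can activate or repress its targets, works with chromatin complexes such as Ino80 and the Polycomb group, and helps to hold enhancers and promoters together. Its loss from the lung epithelium is known to disturb the branching of the airways. Stage E14.5 falls in the period in which airways branch, secretory and ciliated cells have yet to mature, and smooth muscle forms around the airways.

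The 8 arrays had like intensities, with medians of the 12 arrays between 5.99 and 6.08, and correlated with each other at 0.981 to 0.989 across probe sets. Y-linked genes stood above the controls on Yy1 mutants 2 and 3 and on Dicer mutant 4. Uty, a Y-linked demethylase, read 4.11, 3.75, 3.94 and 3.89 in controls 1 to 4 and 3.97, 8.52, 5.14 and 4.34 in Yy1 mutants 1 to 4. Counts are therefore also given from a fit without these 3 arrays, called below the fit without the Y-raised arrays, which leaves 2 Yy1 mutants. Defining lung markers were present: the lung factors Nkx2-1, Foxf1, Tbx4 and Tbx5 and the epithelial genes Epcam and Cdh1 were all expressed, at control means from 9.28 to 10.83. Markers of macrophages moved with the genotype, as 5 of 5 rose and their summed level was 10.20 to 10.30 (log2) in controls and 10.71 to 10.95 in mutants. Markers of epithelium and smooth muscle moved the other way. Of 6 epithelial markers 4 fell, with summed levels of 11.60 to 11.75 in controls and 10.92 to 11.16 in mutants. Of 6 smooth muscle markers 5 fell, with 12.67 to 12.85 in controls and 11.85 to 12.22 in mutants. Of 5 endothelial markers 0 were called, and the same held for markers of red cells, liver, skeletal muscle, neurons, thymus and stomach; of all these 1 gene, a stomach marker, had an unadjusted limma p under 0.05. Heart muscle genes were uneven among the mutants: Myh6, a cardiac myosin, read 6.45, 6.79, 6.42 and 6.38 in controls 1 to 4 and 7.21, 7.48, 6.93 and 5.92 in Yy1 mutants 1 to 4, and of 3 heart markers none was called or had an unadjusted limma p under 0.05.

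Yy1 itself was lower on average, without passing the test. It read 9.01, 9.14, 8.98 and 9.01 in controls 1 to 4 and 8.87, 8.70, 8.85 and 8.95 in Yy1 mutants 1 to 4. The groups did not overlap, and the difference was -0.19 (SE 0.068, adjusted p = 0.125). The RNA of cells without Cre is part of this value, and the position of the probe set with respect to the floxed part of the gene was not given.

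Many genes changed, most of them by less than 1.5-fold, and more fell than rose. A gene is called below, or said to rise or fall, where limma's moderated test, adjusted after Benjamini and Hochberg over all 22180 genes, gave a p under 0.05. By this rule 1465 genes were called, 6.61% of those tested: 614 rose (2.77%) and 851 fell (3.84%). In 2800 genes (12.6%) the 4 mutant values did not overlap the 4 control values, and 1416 of the called genes were among them. Of the called genes, 391 changed at least 1.5-fold, 96 at least 2-fold and 10 at least 4-fold. At 2-fold or more, 33 genes rose and 63 fell, and at 4-fold or more 1 rose and 9 fell. The median difference over all genes was 0.0016. Without the Y-raised arrays 245 genes rose and 361 fell, 2.73% of all in both directions together, and 563 genes were called in both fits. Without Yy1 mutant 1 alone 401 genes rose. The sign was the same without the Y-raised arrays for all 1465 called genes. This is no separate check, as that fit reuses the controls and 2 of the same mutants. For the 1416 called genes with groups that did not overlap, the sign could not change.

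**Figure D1:**
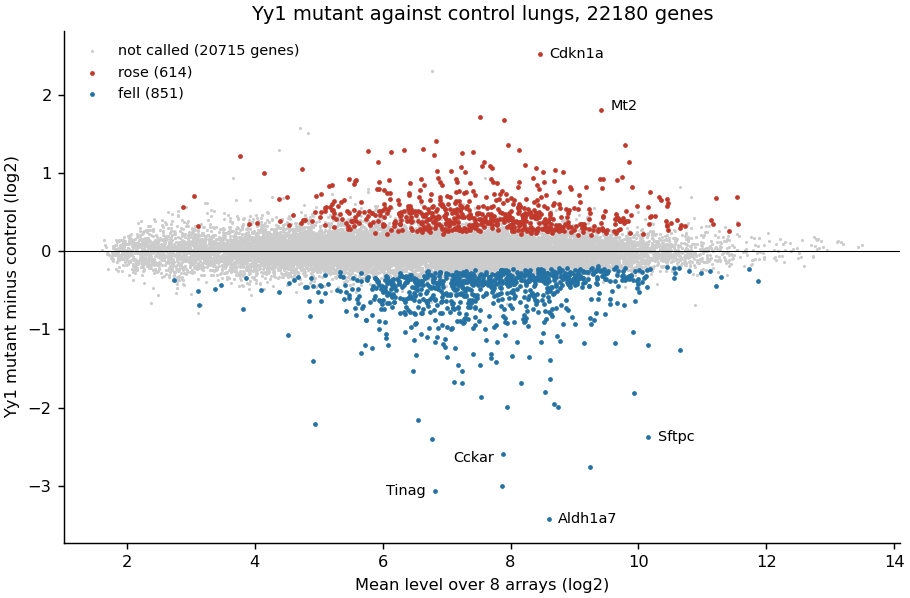
Mean log2 level over the 8 arrays (horizontal) against the log2 difference between Yy1 mutants and controls (vertical) for 22180 genes, with genes that rose in red (614), genes that fell in blue (851) and genes not called in grey. The falls reach -3.43 (Aldh1a7) and the rises 2.51 (Cdkn1a), and most called genes lie within 1 log2 unit of 0.

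Calls were rare among dim genes. In 5 equal groups of genes by mean level, 0.834% were called in the dimmest, then 2.80%, 8.27%, 10.8% and 10.3% towards the brightest. In a principal component analysis of the 8 arrays the first component held 35.5% of the variance and set controls (-19.9 to -11.7) apart from Yy1 mutants (13.8 to 17.7). The second component held 17.2% and its values overlapped between the groups. Beyond the gene table, 96 of 17824 probe sets without exactly 1 gene symbol were called (0.539%), 65 higher and 31 lower. The split was 42 and 32 with equal array medians, 40 and 33 after quantile normalisation, 11 and 13 with the 8 arrays alone, and 8 and 2 without the Y-raised arrays.

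Genes with the largest changes were taken from the 15 largest called changes each way with groups that did not overlap, predicted and small RNA genes left out. Airway secretory genes and smooth muscle genes were among the falls, and metallothionein, proteoglycan and signalling genes among the rises. Aldh1a7, an aldehyde dehydrogenase gene, fell by 3.43 (SE 0.152, adjusted p = 5.1e-08). Tinag, which encodes a protein of basement membranes, read 7.99, 8.90, 8.38 and 8.11 in controls 1 to 4 and 5.45, 5.24, 5.24 and 5.22 in Yy1 mutants 1 to 4. All mutants were below all controls, and the fall was 8.34-fold: Tinag fell by 3.06 (SE 0.207, adjusted p = 1.72e-06). Cym, the gene of the gastric protease chymosin, fell by 2.76 (SE 0.194, adjusted p = 2.12e-06), and the airway cytochrome P450 gene Cyp2f2 fell by 2.40 (SE 0.339, adjusted p = 0.000661). Scgb3a2, a secretoglobin of the airway lining, fell by 2.20 (SE 0.189, adjusted p = 1.18e-05). Of other kinds of gene, Anxa1, which encodes the phospholipid-binding protein annexin A1, fell by 1.87 (SE 0.186, adjusted p = 4.43e-05), and Fmod, a collagen-binding proteoglycan, fell by 1.82 (SE 0.129, adjusted p = 2.17e-06). Myh11, Cnn1 and Actg2, all contractile proteins of smooth muscle, fell by 1.99, 1.99 and 1.80, and Hhip, the membrane inhibitor of hedgehog ligands, fell by 1.96 (SE 0.142, adjusted p = 2.5e-06).

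Among the rises, Mt2, a metal-binding metallothionein, read 8.41, 8.38, 8.76 and 8.48 in controls 1 to 4 and 10.26, 10.60, 10.46 and 9.95 in Yy1 mutants 1 to 4. The groups were far apart, and the gene rose by 1.81 (SE 0.123, adjusted p = 1.72e-06); its neighbour in function Mt1 rose by 1.07 (SE 0.0994, adjusted p = 2.74e-05). St8sia6, a sialyltransferase, rose by 1.72 (SE 0.116, adjusted p = 1.72e-06), and Tmem100, which encodes a small membrane protein, rose by 1.67 (SE 0.114, adjusted p = 1.72e-06). The semaphorin receptor gene Plxna4 rose by 1.36 (SE 0.0847, adjusted p = 9.56e-07), and the sulphotransferase gene Chst8 rose by 1.25 (SE 0.0993, adjusted p = 6.14e-06). Lumican (Lum), a proteoglycan of the same family as Fmod, rose by 1.29 (SE 0.142, adjusted p = 0.000105), so these 2 members of the family went opposite ways. Fgf20, a fibroblast growth factor, read 5.54, 5.12, 5.63 and 5.70 in controls 1 to 4 and 6.72, 6.57, 6.98 and 6.80 in Yy1 mutants 1 to 4, and rose by 1.27 (SE 0.122, adjusted p = 3.41e-05). Lamp3, a lysosomal membrane gene also found in surfactant-storing bodies, rose by 1.41 (SE 0.177, adjusted p = 0.000273).

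Functions beyond the lung marker genes were described with 60 gene lists and 55 families of gene symbols. Their counts are set beside the share of all genes called, 6.61%; of the 1818 distinct measured genes in the lists, 249 were called (13.7%). Of the 60 lists, those of epithelium and smooth muscle had the highest shares of falling members. Of 26 epithelial genes 16 fell and 10 were not called, with a median difference of -0.44 against 0.0016 over all genes (15 fell without the Y-raised arrays). Of 18 smooth muscle genes 9 fell and 2 rose, the median difference being -0.40 (2 rose and 9 fell without the Y-raised arrays).

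**Figure D2:**
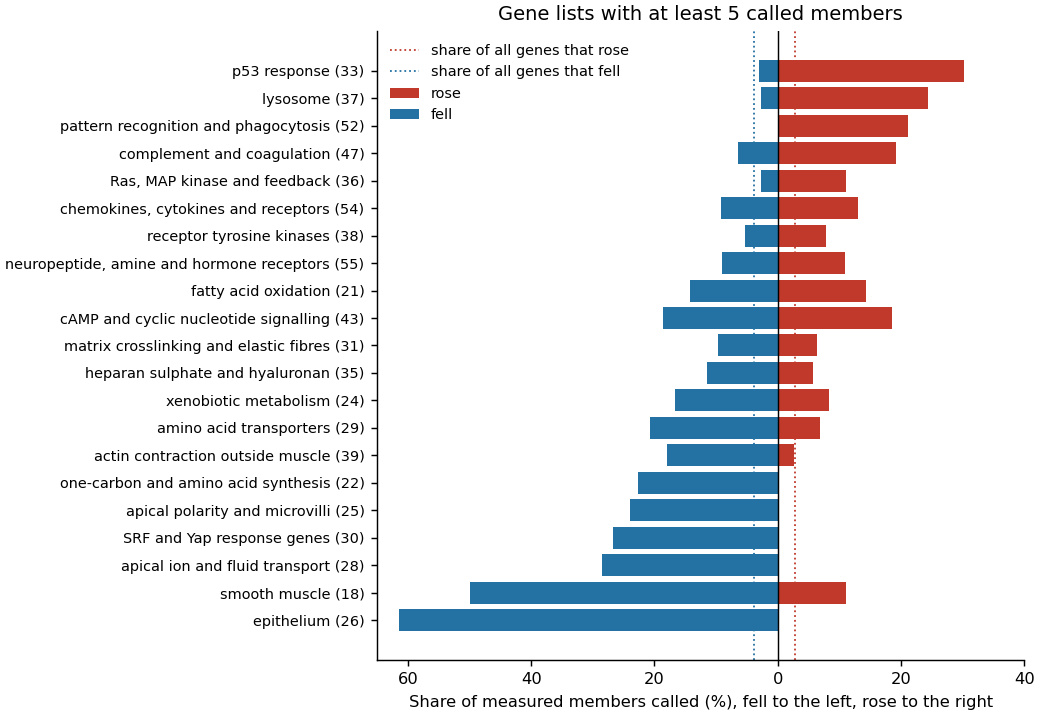
Share of the measured members of each gene list (number measured in parentheses) that fell (blue, to the left) or rose (red, to the right) in Yy1 mutants, for lists with at least 5 called members. Dotted lines mark the shares over all genes, 3.84% fell and 2.77% rose. Epithelium has 16 of 26 members lower, and phagocytosis 11 of 52 members higher and 0 lower.

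Channels that move ions across the epithelial surface were among the genes that fell. At this stage the lung secretes fluid that keeps the airways open, with chloride leaving through apical channels; sodium channels take fluid up later. Of 28 measured genes 8 fell and 20 were not called (5 fell without the Y-raised arrays). Cftr, the chloride channel of apical membranes, read 7.56, 7.95, 7.58 and 7.44 in controls 1 to 4 and 5.61, 5.60, 5.25 and 5.42 in Yy1 mutants 1 to 4. Every mutant was more than 1 log2 unit below every control, and Cftr fell by 2.16 (SE 0.137, adjusted p = 1.12e-06), or 4.46-fold. Ano1, a calcium-gated chloride channel, fell by 1.63 (SE 0.119, adjusted p = 2.75e-06). The sodium channel subunits Scnn1g and Scnn1b fell by 1.67 (adjusted p = 7.27e-06) and by 0.62 (adjusted p = 0.000191), and the water channel gene Aqp4, named after its values were seen, fell by 0.74 (SE 0.135, adjusted p = 0.00432). The median of the list was -0.05.

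Solute carriers, the largest family of membrane transporters, had a share of called genes near that of all genes. Of 361 measured genes 11 rose and 19 fell and 331 were not called, so 8.31% were called beside 6.61% of all genes (5 rose and 11 fell without the Y-raised arrays). Slc16a12, a carrier for creatine, read 7.44, 7.77, 7.49 and 7.42 in controls 1 to 4 and 6.44, 6.59, 6.36 and 6.25 in Yy1 mutants 1 to 4. All mutants were below all controls, and Slc16a12 fell by 1.12 (SE 0.0883, adjusted p = 6.14e-06). Slc15a2, which takes up di- and tripeptides, fell by 1.54 (SE 0.176, adjusted p = 0.000138), and Slc39a8, a zinc and manganese importer, fell by 0.92 (SE 0.071, adjusted p = 5.02e-06). Among amino acid carriers 6 of 29 fell and 2 rose (1 rose and 5 fell without the Y-raised arrays). Of these the glutamine carrier Slc38a1 fell by 0.48 (SE 0.0628, adjusted p = 0.000397), while the related Slc38a5 rose by 0.55 (SE 0.0858, adjusted p = 0.00141). A few further carriers stood out and were named after their values were seen: the choline carrier-like gene Slc44a3 fell by 0.86 (adjusted p = 0.000282), the lactate and pyruvate carrier Slc16a1 by 0.54 (adjusted p = 0.000535), the fatty acid carrier Slc27a6 by 0.93 (adjusted p = 0.000651), and the anion exchanger Slc26a7 rose by 1.08 (adjusted p = 0.000817).

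Called genes of cyclic nucleotide signalling went both ways in equal number. In this pathway adenylyl cyclases make cAMP, phosphodiesterases break it down, and A-kinase anchoring proteins hold protein kinase A at its targets. Of 43 genes 8 rose and 8 fell, the median difference being 0.05 (4 rose and 2 fell without the Y-raised arrays). Npr3, the clearance receptor for natriuretic peptides, read 9.05, 8.91, 8.87 and 8.96 in controls 1 to 4 and 9.89, 9.84, 9.85 and 9.88 in Yy1 mutants 1 to 4. The spread within each group was small beside the gap between them, and Npr3 rose by 0.92 (SE 0.0636, adjusted p = 1.95e-06). The anchoring protein gene Akap5 read 9.26, 9.58, 9.32 and 9.24 in controls 1 to 4 and 8.05, 8.44, 8.14 and 8.17 in Yy1 mutants 1 to 4, and fell by 1.15 (SE 0.127, adjusted p = 0.000115). Phosphodiesterases also went both ways: of 26, 4 rose and 5 fell (3 rose and 1 fell without the Y-raised arrays). Pde7b rose by 1.10 (adjusted p = 8.38e-05), Pde3a by 0.62 (adjusted p = 0.000421) and Pde1a by 0.69 (adjusted p = 0.00191), whereas Pde8b fell by 0.89 (adjusted p = 0.00389). Pde7b, Pde8b and the phosphodiesterases of their types act mainly on cAMP, and Pde1a is activated by calcium and calmodulin. Pde1a and Pde8b were named after their values were seen.

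Receptors for peptides, amines and hormones included one of the largest falls. Cckar, the receptor for the gut peptide cholecystokinin, read 9.37, 9.14, 9.17 and 9.06 in controls 1 to 4 and 6.62, 6.90, 6.69 and 6.16 in Yy1 mutants 1 to 4. All mutants were at least 2 log2 units below the control mean, and Cckar fell by 2.59 (SE 0.152, adjusted p = 5.85e-07). Of the 55 genes of this list 6 rose and 5 fell (2 rose and 4 fell without the Y-raised arrays). Lgr6, a receptor for R-spondins, fell by 0.92 (SE 0.0798, adjusted p = 1.42e-05), and Tacr2, a receptor for neurokinins, fell by 0.78 (SE 0.121, adjusted p = 0.00138). The lysophosphatidic acid receptor gene Lpar3 rose by 0.66 (SE 0.0886, adjusted p = 0.000454). Among receptor tyrosine kinases and their co-receptors, Ret, which binds ligands of the GDNF family, fell by 0.93 (SE 0.103, adjusted p = 0.000109). Of the 38 genes in that list 3 rose and 2 fell (1 fell without the Y-raised arrays, and 3 were called without 1 of Yy1 mutants 1 and 3 or controls 1, 3 and 4). Regulators of G protein signalling, which switch such receptors' G proteins off, included Rgs5, a pericyte gene, which rose by 1.01 (SE 0.167, adjusted p = 0.00222).

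**Figure D3:**
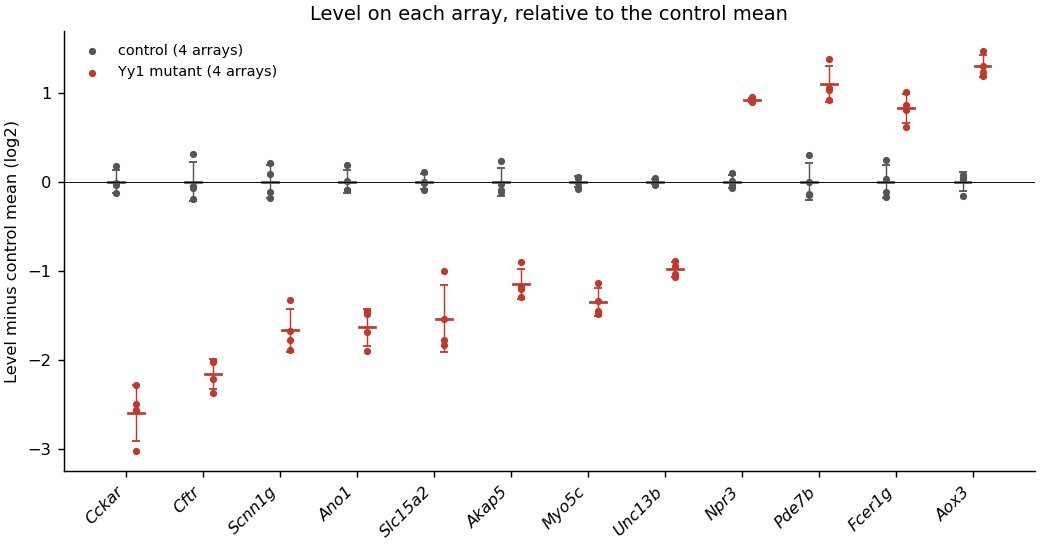
Log2 level on each array minus the control mean for 12 genes of transport, signalling, trafficking, phagocyte and oxidation lists, controls in grey and Yy1 mutants in red, with the mean (bar) and SD (whisker) of 4 arrays. In each of the 12 genes the 2 groups are separate; Cckar and Cftr lie lowest, at -2.59 and -2.16, and Aox3 highest, at 1.30.

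Called myosin and kinesin genes fell more often than they rose. Of 49 myosin genes 9 fell, the smooth muscle gene Myh11 among them, and 3 rose. Of 38 kinesin genes 8 fell and 1 rose. Of 23 dynein genes 0 were called, and 2 had an unadjusted limma p under 0.05. For myosins 5 fell without the Y-raised arrays, and for kinesins 2 fell without the Y-raised arrays, and 4 to 5 were called without 1 of Yy1 mutants 1 and 3 or controls 1 and 2. Myo5c, a myosin that carries secretory vesicles in epithelial cells, read 9.01, 8.96, 8.89 and 9.02 in controls 1 to 4 and 7.63, 7.84, 7.49 and 7.52 in Yy1 mutants 1 to 4. The groups did not overlap, and Myo5c fell by 1.35 (SE 0.0971, adjusted p = 2.4e-06). Its relative Myo5b, which works in recycling endosomes and was named after its values were seen, fell by 0.62 (SE 0.0938, adjusted p = 0.00116). The kinesin Kif21a fell by 1.10 (SE 0.13, adjusted p = 0.000177) and Kif1a, a carrier of vesicles along microtubules, fell by 0.72 (SE 0.0822, adjusted p = 0.000133). In regulated secretion 2 of 37 genes fell and 1 rose, 8.11% called, near the 6.61% of all genes. Unc13b, which primes vesicles for release, read 7.90, 7.94, 7.91 and 7.87 in controls 1 to 4 and 6.96, 7.01, 6.87 and 6.83 in Yy1 mutants 1 to 4, and fell by 0.99 (SE 0.0701, adjusted p = 2.21e-06). Stxbp2, which binds the fusion protein syntaxin, fell by 0.37 (SE 0.0666, adjusted p = 0.00376), and Sytl2, which tethers vesicles through Rab27, rose by 0.88 (SE 0.0948, adjusted p = 9.03e-05). Rab15, a small GTPase of endosomes, fell by 0.66 (SE 0.0722, adjusted p = 0.000102).

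Cell polarity genes, which separate the apical from the lateral surface of an epithelial cell, were lower where called. Of 25 genes 6 fell and 19 were not called, the median difference being -0.13 (1 fell without the Y-raised arrays). Llgl2, a lateral polarity protein, read 7.95, 7.84, 7.87 and 7.84 in controls 1 to 4 and 7.35, 7.46, 7.31 and 7.25 in Yy1 mutants 1 to 4. Mutants were below controls throughout, and Llgl2 fell by 0.53 (SE 0.0707, adjusted p = 0.000426). Eps8, an actin regulator of microvilli, fell by 0.59 (SE 0.103, adjusted p = 0.0033, and 0.0502 without the Y-raised arrays), and Prkci, the atypical protein kinase C of the apical complex, fell by 0.38 (SE 0.0753, adjusted p = 0.00743, and 0.066 without the Y-raised arrays). Cadherins fell in 5 of 28 and rose in 2 (2 rose and 4 fell without the Y-raised arrays): the epithelial Cdh16 fell by 0.98 (SE 0.106, adjusted p = 9.12e-05) and Cdh4 fell by 0.76 (SE 0.0867, adjusted p = 0.000138), while Cdh10, named after its values were seen, rose by 0.84 (SE 0.115, adjusted p = 0.000482). Further falls were in the basolateral sorting subunit Ap1m2, lower by 0.76 (adjusted p = 0.000138), and Tspan15, a partner of the protease Adam10, lower by 0.86 (adjusted p = 0.000191).

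Some genes of actin-based contraction fell that are not in the smooth muscle list. Serum response factor (Srf) and Yap are transcriptional regulators that respond to tension in the actin skeleton. Of 30 of their known response genes 8 fell and 22 were not called, the median difference being -0.09 (5 fell without the Y-raised arrays, and 5 were called without 1 of Yy1 mutant 4 or control 2). Of these genes 3, Tagln and Cnn1 among them, are also in the smooth muscle list and all 3 fell. Of the 27 others 5 fell (2 fell without the Y-raised arrays). Nuak2, a kinase that promotes contraction, is not a muscle marker; it read 7.15, 7.27, 7.06 and 7.04 in controls 1 to 4 and 6.40, 6.47, 6.34 and 6.18 in Yy1 mutants 1 to 4, and fell by 0.78 (SE 0.0763, adjusted p = 3.75e-05). In the list of actin contraction outside muscle 7 of 39 fell and 1 rose (3 fell without the Y-raised arrays). The smooth muscle gene Tagln is among the 7. Of the 38 members outside the smooth muscle list 6 fell and 1 rose (0 rose and 2 fell without the Y-raised arrays). Profilin 2 (Pfn2), which feeds actin filaments, fell by 0.51 (SE 0.0816, adjusted p = 0.00161), and the non-muscle myosin Myh14 fell by 0.57 (SE 0.107, adjusted p = 0.00536). Of potassium channels, Kcnma1 of smooth muscle, named after its values were seen, fell by 0.82 (SE 0.124, adjusted p = 0.00106), while Kcnk2, a channel opened by stretch, rose by 0.77 (SE 0.106, adjusted p = 0.000568).

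Lysosomal and phagocyte genes that passed the test were mostly higher. The lysosome digests material taken up by the cell and is prominent in macrophages. Of 37 lysosomal genes 9 rose and 1 fell, the median difference being 0.12 (2 rose and 1 fell without the Y-raised arrays). Lipa, the acid lipase of lysosomes, rose by 0.38 (SE 0.0606, adjusted p = 0.00163), and Npc2, which carries cholesterol out of them, fell by 0.37 (SE 0.0664, adjusted p = 0.00386). For pattern recognition and phagocytosis 11 of 52 genes rose and 41 were not called, the median difference being 0.16 (3 rose without the Y-raised arrays, and 7 were called without 1 of Yy1 mutants 1, 2 and 3 or controls 2 and 4). Fcer1g, the signalling chain of Fc receptors, read 8.77, 8.56, 8.41 and 8.35 in controls 1 to 4 and 9.39, 9.33, 9.53 and 9.13 in Yy1 mutants 1 to 4. The groups did not overlap, and Fcer1g rose by 0.82 (SE 0.125, adjusted p = 0.00114). The scavenger receptor gene Stab2 rose by 0.75 (SE 0.118, adjusted p = 0.00155) and Ly96, a partner of the endotoxin receptor, rose by 0.76 (SE 0.121, adjusted p = 0.00177). The macrophage markers Csf1r, Cd68, Fcer1g, Tyrobp and C1qb all rose with these lists (Csf1r had an adjusted p of 0.0947 without the Y-raised arrays, and Tyrobp one of 0.0647 to 0.0741 without 1 of Yy1 mutants 1, 2 and 3 or controls 1 and 2), and their part in the lists' change was not tested.

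Complement and coagulation genes rose more often than they fell. Of 47 genes 9 rose and 3 fell, the median difference being 0.14 (5 rose and 1 fell without the Y-raised arrays). C7, a component of the membrane attack complex, rose by 0.91 (SE 0.103, adjusted p = 0.000127), and C1qb, which starts the classical pathway and is also a macrophage marker, rose by 0.72 (SE 0.101, adjusted p = 0.000626). The clotting regulators Plat (plasminogen activator) and Thbd (thrombomodulin) rose by 0.52 (adjusted p = 0.00328) and by 0.41 (adjusted p = 0.00202). Complement factor I (Cfi), which inactivates complement and was named after its values were seen, fell by 0.66 (SE 0.117, adjusted p = 0.0036). Chemokine and cytokine genes were mixed, at 7 higher and 5 lower of 54 (1 rose and 2 fell without the Y-raised arrays). Ccl3, a chemokine of macrophages, rose by 0.74 (SE 0.133, adjusted p = 0.00389). In lipid mediators, Pla2g1b, a secreted phospholipase A2, rose by 0.89 (SE 0.145, adjusted p = 0.00206). Of 61 interferon-induced genes 1 rose and 1 fell (3.28% called). The one that fell was Iigp1, an interferon-induced GTPase, lower by 1.07 (SE 0.15, adjusted p = 0.00061). The RNA sensor gene Ddx58, which is not counted in that family, rose by 0.70 (SE 0.107, adjusted p = 0.00114). Iigp1 and Ddx58 were named after their values were seen.

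Called genes of the p53 response mostly rose, among them the growth arrest gene Cdkn1a, which rose by 2.51 (SE 0.157, adjusted p = 9.56e-07). Of 33 genes 10 rose and 1 fell, the median difference being 0.19 (6 rose and 1 fell without the Y-raised arrays). Ccng1, a cyclin induced by p53, read 9.20, 9.06, 9.07 and 9.07 in controls 1 to 4 and 10.39, 10.58, 10.47 and 10.42 in Yy1 mutants 1 to 4. Mutants were above controls throughout, and Ccng1 rose by 1.36 (SE 0.0702, adjusted p = 2.34e-07). The death receptor gene Eda2r rose by 1.29 (SE 0.0735, adjusted p = 4.75e-07) and Dglucy, a mitochondrial enzyme gene, rose by 1.31 (SE 0.136, adjusted p = 6.49e-05). Of members named after their values were seen, Trp53inp1 rose by 0.74 (adjusted p = 0.000422) and Zmat3 by 0.58 (adjusted p = 0.00073), while the antiproliferative gene Btg2 fell by 0.48 (adjusted p = 0.00572). Cell death genes counted 2 higher and 1 lower of 38 (7.89% beside 6.61% of all genes; 1 rose and 2 fell without the Y-raised arrays, and 5 to 6 were called without 1 of Yy1 mutant 2 or control 3). Among these the BH3 protein gene Bcl2l11 rose by 0.44 (SE 0.0731, adjusted p = 0.00243) and Tnfrsf21, a death receptor, fell by 0.38 (SE 0.0698, adjusted p = 0.00467).

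Metabolic genes changed in small numbers and often by member. In fatty acid oxidation 3 of 21 genes rose and 3 fell (2 rose and 2 fell without the Y-raised arrays). The dehydrogenases for long and medium chains, Acadl and Acadm, fell by 0.44 (adjusted p = 0.000748) and by 0.39 (adjusted p = 0.00253). Acadm read 8.69, 8.70, 8.79 and 8.68 in controls 1 to 4 and 8.39, 8.42, 8.22 and 8.29 in Yy1 mutants 1 to 4. These groups did not overlap. Other genes of the list rose, the thiolase Acaa2 by 0.47 (adjusted p = 0.000461) and Cpt1c, of the carnitine palmitoyltransferase family, by 0.66 (adjusted p = 0.00119). In the metabolism of foreign compounds 4 of 24 fell and 2 rose (1 rose and 3 fell without the Y-raised arrays). Aox3, an aldehyde oxidase, read 5.53, 5.74, 5.71 and 5.77 in controls 1 to 4 and 6.88, 7.15, 6.92 and 6.99 in Yy1 mutants 1 to 4, and rose by 1.30 (SE 0.0909, adjusted p = 2.12e-06). Cyp2s1 fell by 0.80 (SE 0.108, adjusted p = 0.000482), and Cbr2, a carbonyl reductase of airway cells named after its values were seen, fell by 1.05 (SE 0.215, adjusted p = 0.00878).

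Synthesis of one-carbon units, serine and nucleotides, which dividing cells need, showed falls alone among called genes. Of 22 genes of one-carbon and amino acid synthesis 5 fell and 17 were not called, the median difference being -0.15 (1 fell without the Y-raised arrays, and 2 to 3 were called without 1 of Yy1 mutants 1, 2, 3 and 4 or control 1). Psat1, which makes serine's precursor, read 8.61, 8.77, 8.59 and 8.48 in controls 1 to 4 and 7.98, 8.24, 7.99 and 8.04 in Yy1 mutants 1 to 4, and fell by 0.55 (SE 0.0815, adjusted p = 0.000952). Mthfd2, a mitochondrial folate enzyme, fell by 0.32 (SE 0.0615, adjusted p = 0.00564, and 0.0506 without the Y-raised arrays). In nucleotide synthesis 3 of 22 fell and 19 were not called, and in the nuclear pore list 4 of 29 fell and 25 were not called. In the nucleotide list none was called without the Y-raised arrays, and in the nuclear pore list none was called without the Y-raised arrays, and 2 were called without 1 of Yy1 mutants 1, 2, 3 and 4 or controls 1, 2 and 3. Rangap1, which drives the Ran cycle of nuclear transport, fell by 0.39 (SE 0.0684, adjusted p = 0.00312, and 0.0874 without the Y-raised arrays). Of 47 histone genes 3 fell and 44 were not called, so 6.38% were called, near the 6.61% of all genes. Those that fell included H2az1, a histone variant found near transcription starts, which fell by 0.98 (SE 0.134, adjusted p = 0.000504).

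Matrix and cell surface glycans were altered in single genes. Sulf1, which trims sulphate from heparan sulphate and so alters growth factor binding, rose by 0.81 (SE 0.105, adjusted p = 0.000339), and Sdc4, a heparan sulphate proteoglycan of the cell surface, fell by 0.63 (SE 0.0976, adjusted p = 0.0013). Their list counted 2 higher and 4 lower of 35 (1 rose and 1 fell without the Y-raised arrays). Ltbp2, an elastic fibre protein, and P4ha3, a collagen hydroxylase, fell by 0.63 (adjusted p = 0.00311) and by 0.68 (adjusted p = 0.00161). Ugcg, which makes the first glucosylceramide of glycosphingolipids, rose by 0.47 (SE 0.096, adjusted p = 0.00851). Of 44 collagen genes 6 rose and 6 fell (1 rose and 2 fell without the Y-raised arrays, and 6 to 7 were called without 1 of Yy1 mutant 3 or controls 2 and 4), and Col26a1 rose by 0.48 (SE 0.0705, adjusted p = 0.000852). In the blood and lymphatic endothelium list 2 rose and 2 fell of 28 (1 fell without the Y-raised arrays, and 2 were called without 1 of Yy1 mutants 1, 2, 3 and 4 or controls 1, 3 and 4). Pdpn, shared by lymphatic and alveolar type 1 cells, fell by 0.62 (SE 0.0965, adjusted p = 0.00134).

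Some lists of general cell machinery held 0 called genes. The number of members with an unadjusted limma p under 0.05 is given for each beside the number measured: mitochondrial import and dynamics (4 of 32), translation factors and tRNA synthetases (7 of 34), RNA polymerase II and its general factors (5 of 27), the Mediator complex (8 of 29), phospholipid and triglyceride synthesis (7 of 25), antigen presentation (4 of 24), red blood cell genes (0 of 15) and the chromatin complexes that work with Yy1 (7 of 36). Over all genes 4266 of 22180 had an unadjusted p under 0.05. With 1 array left out, at most 2 genes of any of these lists were called (Mediator, without Yy1 mutant 1). Of 66 ribosomal protein genes 1 fell and 65 were not called (1 rose without the Y-raised arrays, and 2 to 8 were called without 1 of Yy1 mutant 2 or controls 1, 2, 3 and 4). Olfactory receptors, a family with little expression in lung, had 5 of 1105 called (0.452%).

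Called microRNA genes rose more often than they fell, and most of those that rose lay in 1 genomic cluster. MicroRNAs are short RNAs that repress messages carrying a match to their seed, bases 2 to 8 of the mature strand. The array reports the transcript at the microRNA gene, not the mature strand. Of 483 measured genes 19 rose and 6 fell, 5.18% called beside 6.61% of all genes; the genes below were named after their values were seen. Mature sequences of 4 of the 6 that fell are printed to show which of these share a seed, with the seed in capitals, from RefSeq on GRCm38.p6. The miR-135b-5p strand is not shown. The 3p strands of miR-200a and miR-200b differ at C4U inside the seed and at U9C, C17U and U22A outside it (position counted from the 5′ end, miR-200a base first), and their 5p strands share 1 seed.
miR-200a-3p: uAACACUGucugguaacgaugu
miR-200b-3p: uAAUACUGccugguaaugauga
miR-200a-5p: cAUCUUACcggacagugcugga
miR-200b-5p: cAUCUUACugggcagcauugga
miR-205-5p: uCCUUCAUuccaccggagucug
miR-205-3p: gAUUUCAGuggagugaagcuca
miR-135b-3p: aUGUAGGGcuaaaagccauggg

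Mir205, a microRNA gene of epithelial progenitors, read 5.07, 5.51, 5.36 and 5.14 in controls 1 to 4 and 4.50, 4.50, 4.59 and 4.18 in Yy1 mutants 1 to 4. Its groups did not overlap, and Mir205 fell by 0.83 (SE 0.11, adjusted p = 0.000426). Mir200b read 7.12, 7.12, 6.95 and 6.80 in controls 1 to 4 and 6.20, 6.60, 6.25 and 5.98 in Yy1 mutants 1 to 4, and fell by 0.74 (SE 0.123, adjusted p = 0.00227). Mir200a, its neighbour on chromosome 4, fell by 0.42 (SE 0.0996, adjusted p = 0.0205, and 0.0545 to 0.0555 without 1 of controls 1 and 2). The miR-200 family is known for holding back the factors Zeb1 and Zeb2 and so keeping cells epithelial. Mir135b fell by 0.50 (SE 0.0952, adjusted p = 0.00575). The remaining 2 of the 6 that fell were Mir18b, which fell by 0.48 (SE 0.12, adjusted p = 0.0268, and 0.222 without the Y-raised arrays, and 0.0618 to 0.0745 without 1 of Yy1 mutants 2, 3 and 4 or controls 1 and 2), and Mir3471-1, which fell by 0.53 (SE 0.13, adjusted p = 0.0263, and 0.0659 to 0.0871 without 1 of Yy1 mutants 1, 3 and 4 or controls 3 and 4). Of the 19 microRNA genes that rose, 14 lay in the imprinted cluster on chromosome 12, which held 41 measured genes, with a median of 0.40 against 0.04 over all microRNA genes. In 40 of the 41 the Yy1 mutant mean was above the control mean, and 7 were called without the Y-raised arrays. The median difference of the cluster from controls was 0.34 in Dicer mutants, so a rise was not particular to Yy1 mutants. Rian, a long RNA of this cluster from which some of its small RNAs are cut, rose by 0.58 (SE 0.0816, adjusted p = 0.000638). Its difference from controls was 0.56 in Dicer mutants, and it was not called between the mutants. Mir300 rose by 0.79 (SE 0.153, adjusted p = 0.00637).

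**Figure D4:**
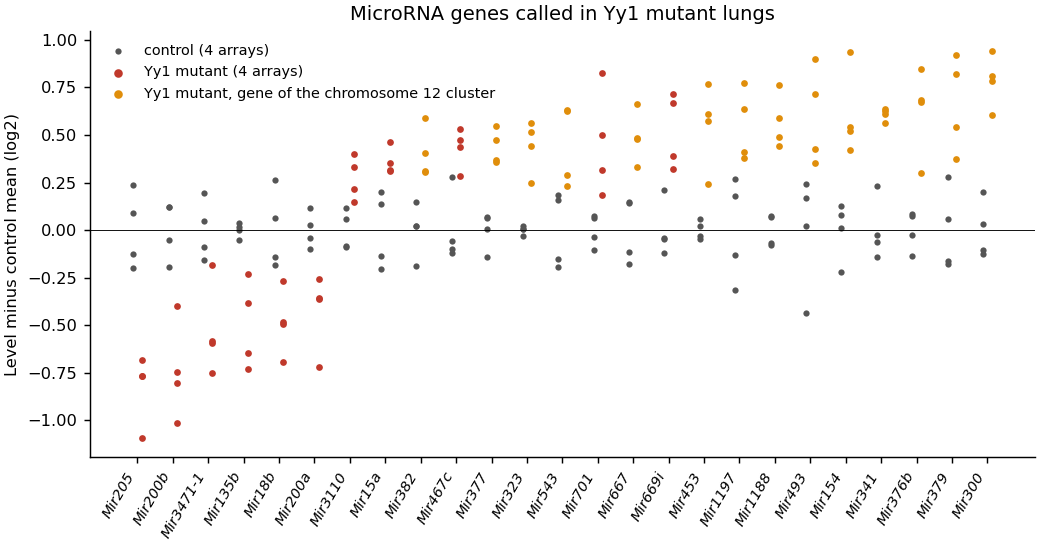
Log2 level on each array minus the control mean for the 25 microRNA genes called in Yy1 mutants, ordered by their difference, with controls in grey, Yy1 mutants in red and Yy1 mutants for genes of the chromosome 12 cluster in orange. Mir205 has the lowest mean at -0.83 and Mir300 the highest at 0.79, and the 14 orange genes are all on the right, where values rose.

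Some called genes lay side by side on a chromosome. Where at least 3 neighbouring measured genes were called in the same direction they are counted as a run, with neighbours taken from the RefSeq annotation (GRCm38.p6) of 22123 placed genes. There were 13 runs with 44 genes, of 1461 called genes placed; 7 runs rose and 6 fell. Of the rising runs 2, with 8 genes, lay in the chromosome 12 cluster, which leaves 11 runs with 36 genes elsewhere, 5 rising and 6 falling. One falling run held Gm19990, Mbip, Sfta3-ps and Nkx2-1, the lung epithelial regulator, at differences of -1.41, -0.45, -1.20 and -0.93. Another held the homeobox genes Irx3 and Irx5 with the noncoding RNA gene Crnde beside them, at -1.09, -0.82 and -0.65; Crnde lost its call without the Y-raised arrays (adjusted p = 0.0668). Rising runs included the ABC transporters Abca8a (0.76), Abca9 (0.69), Abca6 (0.48) and Abca5 (0.37), lipid carriers of 1 gene cluster, of which Abca9 lost its call without the Y-raised arrays (adjusted p = 0.201). Abca9 and Abca5 also lost their calls without single arrays: the adjusted p of Abca9 was 0.0521 to 0.0817 without 1 of Yy1 mutants 1, 2 and 3 or controls 1, 3 and 4, and that of Abca5 was 0.056 to 0.101 without 1 of Yy1 mutants 1, 2 and 4 or controls 1, 2, 3 and 4. Of 35 protocadherin genes, which encode adhesion proteins best known from neurons, 8 rose and 1 fell, the median difference being 0.28 (2 rose without the Y-raised arrays, and 3 to 5 were called without 1 of Yy1 mutants 1, 2 and 4 or controls 1, 3 and 4). Pcdhb12 rose by 0.79 (SE 0.124, adjusted p = 0.00149). Of 37 Hox genes 5 rose and 32 were not called (1 rose without the Y-raised arrays, and 2 to 3 were called without 1 of Yy1 mutants 1, 3 and 4 or controls 1, 2, 3 and 4). The genes of runs named here were chosen after their values were seen. Neighbouring genes can share transcripts and members of a family can share probe sequence, so a run does not count independent changes.

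The binding motif of Yy1 was looked up in promoters, as a description of where called genes carry it. Promoters were 300 bases long, 250 before and 50 after each RefSeq start (GRCm38.p6), and 16990 measured genes had at least 1, with 20611 promoters in all. The form AANATGGCG, on either strand, was in 3.13% of promoters, in 3.96% (34 of 858) for genes that fell, 1.30% (7 of 540) for genes that rose and 3.15% for genes not called. A form 2 bases longer at its 3′ end was in 2.06%, 2.80%, 0.926% and 2.06% of the same groups. The short core GCCAT, whose other strand lies within the longer forms, was in 38.8%, 37.5%, 31.3% and 39.1%. Promoters of called genes were richer in G and C, with medians of 61.2% for falls and 58.7% for rises against 56.7% over all. In 4 equal groups of promoters by GC content, the 9-base motif was more frequent in falls than in uncalled genes in the lower 3 groups (1.57% and 0.685%, 5.52% and 146 of 4864 promoters, and 5.46% and 4.75%) and less frequent in the highest (2.88% and 4.42%). These shares rest on 41 promoters of called genes and no test was made. In 26 of the 41 the motif began at or after the start, and in 15 it ended before it. Promoters of the same gene can overlap, so the same match could be counted more than once, also on both sides of a start.

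Windows of 120 bases ending at the transcription start are printed for 2 falling genes that hold the motif before the start, to show its form and spacing on either strand, with the motif in capitals. Txndc15, an endoplasmic reticulum thioredoxin-like gene that fell by 0.37 (SE 0.0662, adjusted p = 0.00373, and 0.0614 without the Y-raised arrays), holds 2 matches on the strand of the gene, at chr13:55714530-55714649. Fzr1, which activates the anaphase-promoting complex, fell by 0.26 (SE 0.0635, adjusted p = 0.0255, and 0.203 without the Y-raised arrays, and 0.0509 to 0.0735 without 1 of Yy1 mutants 2, 3 and 4 or controls 1 and 2). It holds 1 match, on the strand opposite to the gene, at chr10:81378371-81378490, where the gene itself is on the reverse strand. Both were chosen after their values were seen, and a match is not a site of binding.
Txndc15: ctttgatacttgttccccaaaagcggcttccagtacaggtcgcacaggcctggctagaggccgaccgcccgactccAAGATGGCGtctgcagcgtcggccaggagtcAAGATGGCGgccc
Fzr1: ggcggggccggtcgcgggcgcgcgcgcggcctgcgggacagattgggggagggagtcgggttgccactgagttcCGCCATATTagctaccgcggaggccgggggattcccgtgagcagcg

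Yy1 mutants were also compared with the Dicer mutants, in which another gene is floxed under the same Cre. Dicer cuts microRNAs from their precursors. The 2 mutants share their controls, so their differences from control are given side by side and only the difference between the mutants is tested. Between Yy1 and Dicer mutants 1101 genes were called (4.96%), 348 higher in Yy1 mutants (1.57%) and 753 lower (3.39%). Without the Y-raised arrays 84 were higher and 351 lower, and without Dicer mutant 4 alone 726 genes were called, 174 higher and 552 lower. The number higher was 204 without Dicer mutant 3 and 194 without Yy1 mutant 1 or without Yy1 mutant 3. Of the 1465 genes called in Yy1 mutants against controls, 357 were also called against Dicer mutants with the same sign.

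Gm19990, a predicted gene beside Nkx2-1, lay on opposite sides of the controls in the 2 mutants. It read 8.32, 8.74, 8.59 and 8.27 in controls 1 to 4 and 7.07, 7.35, 7.18 and 6.68 in Yy1 mutants 1 to 4, and 9.13, 9.27, 9.18 and 9.20 in Dicer mutants 1 to 4. Yy1 mutants were below and Dicer mutants above the controls, with no overlap between any 2 groups, and Yy1 minus Dicer was -2.13 (SE 0.133, adjusted p = 1.02e-06). Slc39a8 read 8.34, 8.50, 8.47 and 8.31 in controls 1 to 4 and 7.59, 7.42, 7.47 and 7.45 in Yy1 mutants 1 to 4 and 8.90, 8.68, 8.82 and 8.82 in Dicer mutants 1 to 4, a difference between the mutants of -1.32 (SE 0.071, adjusted p = 2.54e-07). Slc16a12 was -1.12 from controls in Yy1 and 0.17 in Dicer mutants, and differed by -1.29 (SE 0.0883, adjusted p = 2.1e-06) between the mutants. For Slc15a2 these values were -1.54, 0.11 and -1.65 (SE 0.176, adjusted p = 0.000107), and the Dicer mutant means of these 3 carriers were above the control means.

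Signalling and trafficking genes were also called between the mutants. Dusp9, a phosphatase of MAP kinases, differed from controls by -0.94 in Yy1 and 0.23 in Dicer mutants, and by -1.17 (SE 0.0823, adjusted p = 2.52e-06) between them. Unc13b gave -0.99 and -0.03, with -0.95 (SE 0.0701, adjusted p = 3.98e-06) between the mutants, and Sytl2 0.88 and 0.11, with 0.77 (SE 0.0948, adjusted p = 0.000322). In Fgf20 the rise of 1.27 in Yy1 mutants stood beside 0.03 in Dicer mutants, a difference of 1.24 (SE 0.122, adjusted p = 5.92e-05). The histone variant H2az1 gave -0.98 and -0.08, with -0.90 (SE 0.134, adjusted p = 0.00127) between the mutants, and Kif21a -1.10 and -0.12, with -0.98 (SE 0.13, adjusted p = 0.000518). Of the microRNA genes, Mir200b was lower in Yy1 than in Dicer mutants, at a difference of -0.68 (SE 0.123, adjusted p = 0.00499). For Cdkn1a, Mt2 and Myh11 the difference between the mutants was not called, with values from control of 2.51 and 2.37, 1.81 and 1.75, and -1.99 and -2.06. Some lists also held genes called between the mutants, where 1.57% of all genes were higher in Yy1 mutants and 3.39% lower. Of 52 phagocytosis genes 0 were higher and 4 lower in Yy1 than in Dicer mutants. For 37 lysosomal genes these counts were 0 and 4, and for 33 p53 response genes 1 and 3. Of 18 smooth muscle genes 1 was higher and 1 lower. In the epithelium list of 26 genes 3 were higher and 13 lower in Yy1 mutants.

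**Figure D5:**
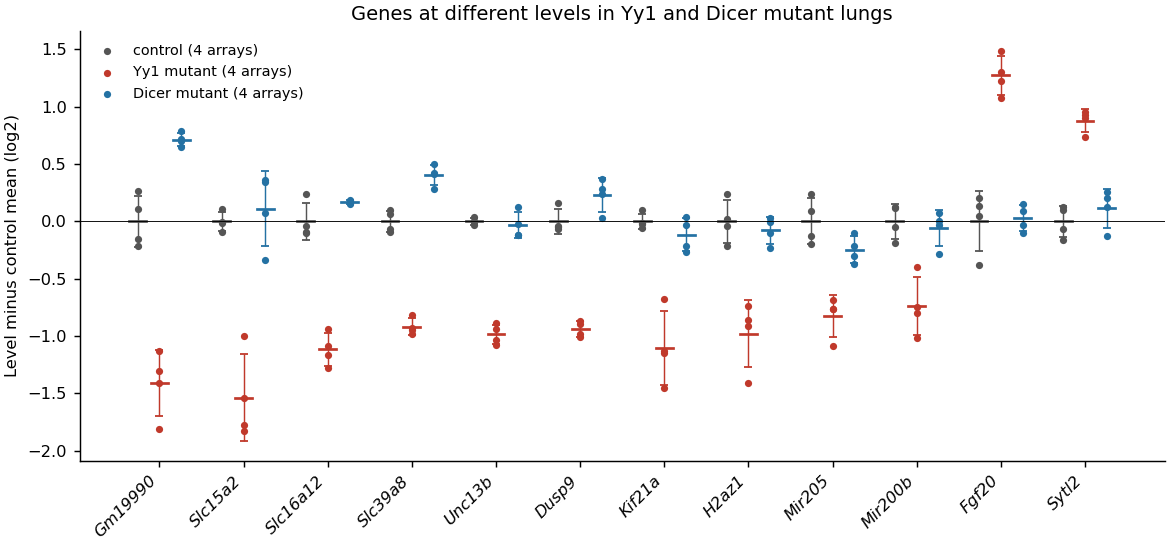
Log2 level on each array minus the control mean for 12 genes called between the mutants, with controls in grey, Yy1 mutants in red and Dicer mutants in blue, bars for the mean and whiskers for the SD of 4 arrays. In 10 genes the Yy1 mutants are the lowest group, while Fgf20 and Sytl2 are highest in Yy1 mutants.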

How the data were processed

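Total RNA of lungs at stage E14.5 was hybridised to single-channel Affymetrix arrays, 4 specimens per genotype. The authors deposited log2 values already normalised between arrays; base 2 is inferred from their range (1.10 to 13.58), and how probe sets were summarised and normalised is not given in the sources used here. Of 41345 probe sets 23521 had exactly 1 gene symbol, and each of 22180 genes was represented by its brightest probe set (highest mean of 12 arrays). The labels give no strain, sex, litter or batch.

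Log2 differences were tested with limma 3.58.1 (R 4.3.3): 1 linear model of the 3 genotypes with 9 residual degrees of freedom, empirical Bayes moderation, two-sided tests and Benjamini-Hochberg adjustment over all genes, called under 0.05. The p-values measure only the spread between these specimens, and the number of arrays limits the precision. Tested on simulated data for 22180 genes of this comparison, a shift of 0.5 was called for 73.1% of 67 genes, 1 for 94.0% of 67 and 2 for 100% of 66, with 16 false calls. The simulated noise was normal and independent between genes and arrays, and no other genes were shifted. The real arrays need not follow this, so these rates describe the simulation only. No dim genes were removed.

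The members, the 60 lists and the 55 symbol families were chosen with earlier results of these data known. Named genes are Yy1, the 15 largest called changes each way without overlap, up to 4 called members with the smallest p of a list with at least 3 called, up to 2 of such a family, the 3 largest changes each way among uncharacterised and small RNA genes, and others said to be named after their values were seen. The results were recomputed with each array left out, with the replicate number as a block, with array weights, for the 8 arrays alone, against a 1.5-fold threshold, with an intensity trend and robust prior, after equalising array medians or quantile normalisation, without the dimmest 30% of genes, with the mean of a gene's probe sets, with a covariate of Xist minus Eif2s3y, and without the 3 arrays on which Y-linked genes were raised. The Yy1 motif is given in a 9-base form beside the longer one planned. Versions were Python 3.11.15, numpy 2.4.6 and pandas 2.3.3 for tables and matplotlib 3.10.9 for plots.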

Additional observations from a re-analysis of the deposited data

Results flagged for a closer look

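In 13 of 280 groups of 4 arrays of the genes named above, 1 array stood apart from the other 3 by Dixon's criterion at 95%. That criterion marks about 1 in 20 of independent groups. The groups here share arrays, and whether the flags arose by chance was not tested. Among controls, control 1 read 9.20 for Ccng1 (others 9.06 to 9.07), 7.06 for Tacr2 (others 6.70 to 6.75) and 8.08 for Dusp9 (others 7.85 to 7.88). Control 2 read 6.79 for Myh6 (others 6.38 to 6.45), and control 3 read 10.49 for Aldh1a7 (others 10.24 to 10.27) and 8.79 for Acadm (others 8.68 to 8.70). Yy1 mutant 1 read 5.45 for Tinag (others 5.22 to 5.24), and Yy1 mutant 4 read 5.99 for Anxa1 (others 6.75 to 6.85).

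Yy1 mutant 2 stood apart in 5 genes. It was high for Mthfd2 at 7.06 (others 6.97 to 6.99), Pdpn at 8.29 (others 7.99 to 8.02) and Tnfrsf21 at 8.56 (others 8.34 to 8.38). It was low for Ly96 at 8.75 (others 9.23 to 9.30) and Mbip at 8.90 (others 9.03 to 9.04). Outside the genes of the report, 96 probe sets without exactly 1 gene symbol were called between Yy1 mutants and controls.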

How the results depend on the processing

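The count of 1465 genes between Yy1 mutants and controls fell to 606 without the 3 arrays whose Y-linked genes were raised (the Y-raised arrays) and to 55 when limma tested for more than a 1.5-fold change, which asks for a larger difference; leaving out 1 array gave 1020 to 1376. The 1101 genes between Yy1 and Dicer mutants became 1806 with array weights, 33 under the 1.5-fold test, 435 without the Y-raised arrays, and 726 to 1026 with 1 array left out. The 96 probe sets without exactly 1 symbol became 24 with the 8 arrays alone and 10 without the Y-raised arrays, fits with fewer arrays. For array weights the cause was not tested. The other settings run on these 3 counts stayed within 1.5 times. The share of called genes that rose was 41.9%, 38.0% with equal array medians and 45.7% after quantile normalisation.

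With the replicate number as a block 1301 genes were called against controls and 997 against Dicer mutants. Equal numbers gave correlations of deviations of 0.081, 0.114, 0.058 and 0.116, all positive. Unequal numbers gave -0.168 (control 4 and Yy1 mutant 1) to 0.131 (control 2 and Yy1 mutant 1). On the second principal component, arrays numbered 1 and 2 were positive and those numbered 3 and 4 negative, in controls and Yy1 mutants alike. The labels give no pairing and the main fit used none. Whether arrays of like number share a batch or litter was not tested. Of 140 named genes none changed sign in the settings run, 101 lost their call under the 1.5-fold test, 11 without the Y-raised arrays, and 7 with at least 1 array left out. Leaving out arrays cannot change the sign of a gene whose groups do not overlap. With 4 arrays a group, and 2 Yy1 mutants once 3 arrays were left out, small differences could not be told from the spread between arrays.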
